A study of Mus musculus with 12 samples.

Results

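Subjective dusk was set against subjective dawn in CD8+ T cells, the cytotoxic lymphocytes, isolated from mouse lymph nodes. Libraries were assigned by their labelled circadian time (CT) alone. The dusk group held CT10 and CT14, the last hours of the subjective day and the early hours of the subjective night, and the dawn group held CT22 and CT2. This took 8 of the 12 libraries of the series, 4 at dusk and 4 at dawn, while CT6 and CT18 stood outside the comparison. All groups came from male C57BL/6J mice aged 8 weeks and held in constant darkness, with no other allele or agent named in the labels. Each circadian time was sampled once on day 1 and once on day 2, so a group is made of 2 times on 2 days. The labels do not state how many mice made up a sample. The p-values therefore measure only the spread between these samples, which may be technical between samples of the same time. In the test of dusk against dawn, that spread also includes the step between the 2 times inside each group and the step between days. A gene that differs between those 2 times is thus harder to call.

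In the molecular clock of mammals, CLOCK and BMAL1 switch on the genes of their own repressors, the PER and CRY proteins and the REV-ERB receptors. They also drive the PAR bZIP factors DBP, TEF and HLF, which pass the rhythm on to output genes. Mice are active at night, and in them the glucocorticoid hormone corticosterone is known to rise towards dusk while body temperature is higher in the active phase. Dusk against dawn therefore contrasts the 2 turning points of the rest and activity cycle, 12 h apart.

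Levels are given in CPM, gene counts scaled to library size over the 8 libraries, and where 2 values of a time follow each other day 1 comes before day 2. The libraries held 24689964 to 33497078 gene counts. Day 1 and day 2 of the same time differed beyond sampling noise at each time (chi-square per degree of freedom from 5.95 to 40.8). The 8 markers of the CD8 T cell list were Cd8a, Cd8b1, Cd3d, Cd3e, Cd3g, Trac, Cd5 and Thy1. All but Cd8a and Cd8b1 are genes of T cells in general. They summed to 6050.4 to 6432 CPM at dusk and 5733 to 6882 CPM at dawn, and no library lacked any of the 8. Markers of other cell types were detected as well. Monocyte and macrophage markers, 15 genes such as Lyz2 and Ccr2, summed to 738 and 1114 CPM at CT10 and 1091 and 1336 CPM at CT14, against 1782 and 2187 CPM at CT22 and 1584 and 761 CPM at CT2. CT10 of day 1 and CT2 of day 2 thus held the least myeloid RNA. The leading principal component of the 8 libraries took 41.9% of the variance. Neutrophil markers varied most, from 14.5 to 40.3 CPM at dusk and from 14.6 to 109.7 CPM at dawn. B cell markers summed to 2409 to 3109 CPM at dusk and 2146 to 3249 CPM at dawn. NK cell markers summed to 194 to 299.9 CPM at dusk and 238 to 366 CPM at dawn, dendritic cell markers to 432 to 751 CPM at dusk and 408 to 743 CPM at dawn, and CD4 T cell markers to 135 to 212 CPM at dusk and 152 to 222 CPM at dawn. Stroma and endothelium markers summed to 144 to 178 CPM at dusk and 156 to 178 CPM at dawn. Erythroid RNA was close to absent, at 0.492 to 1.38 CPM at dusk and 0.790 to 2.15 CPM at dawn. In such bulk samples, fewer cells of a type and less RNA per cell cannot be told apart. CT2 of day 1 stood apart in another way, with 53872 CPM summed over 26 cytosolic ribosome genes against 38661 to 42999 CPM in the 7 other libraries.

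**Figure D1:**
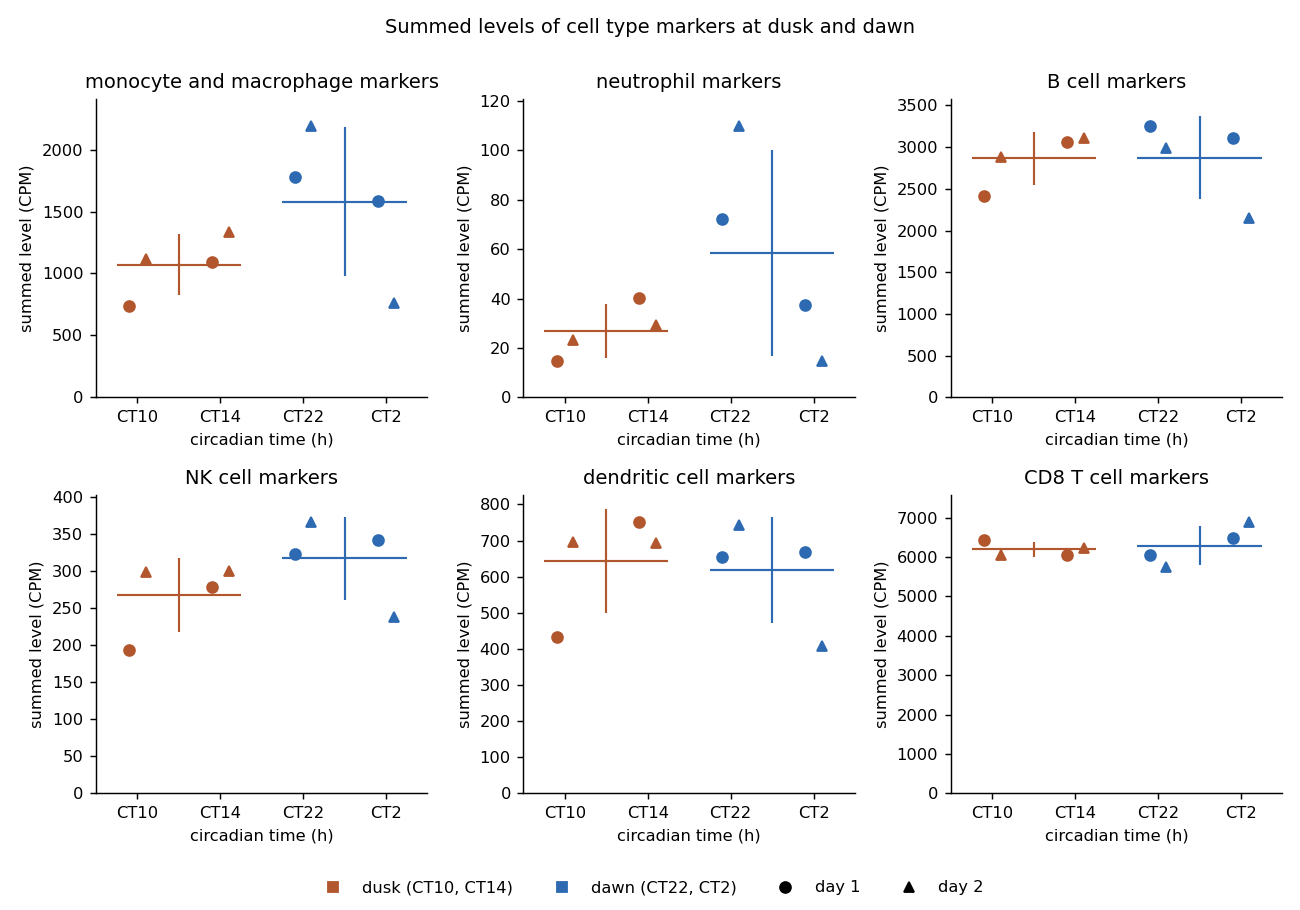
Summed CPM of the marker genes of 6 cell types in each library, by circadian time, with circles for day 1 and triangles for day 2. The horizontal line is the mean and the vertical line the SD of the 4 libraries of a group. The myeloid sums run from 738 to 1336 CPM in the 4 dusk libraries and from 761 to 2187 CPM in the 4 dawn libraries, and the groups overlap.

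The promoters of 24 genes that the results turn on were searched in the RefSeq sequences of GRCm38.p6 for motifs of the clock, of glucocorticoids and of heat shock, and 21 of the genes had an entry. The stretches below were chosen because they hold the motifs, given in capitals, in Tef and Per3, clock genes with higher means at dusk, and in Hsph1, the chaperone gene with the largest CT14 minus CT2 difference among those past the adjusted threshold. Tef has an E-box (CACGTG), the letters that CLOCK and BMAL1 bind, before each of 2 RefSeq starts. The Per3 stretch holds a pair of D-boxes (TTANGTAA), the letters bound by DBP, TEF and HLF, and the Hsph1 stretch an inverted pair of heat shock units (TTCNNGAA), the partial site of heat shock factors. Starts are those of RefSeq throughout. By the gene spans of the GENCODE annotation, the marked letters of Tef and Hsph1 lie inside the gene.
Tef, chr15:81802526-81802571, plus strand: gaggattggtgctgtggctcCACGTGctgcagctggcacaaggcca
Tef, chr15:81811256-81811301, plus strand: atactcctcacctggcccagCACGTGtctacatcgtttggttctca
Per3, chr4:151044796-151044890, minus strand: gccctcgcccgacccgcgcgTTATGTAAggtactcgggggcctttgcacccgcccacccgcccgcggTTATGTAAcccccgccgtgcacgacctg
Hsph1, chr5:149636342-149636389, minus strand: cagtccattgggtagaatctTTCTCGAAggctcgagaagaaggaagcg
Over 250 bases before the start and on both strands, an E-box stood in 8.02% of the 13114 promoters of tested genes, a D-box in 1.42% and the pair of heat shock units in 6.01%. Counted per gene over any of its promoters, an E-box was found in 4 of the 21 genes (Fkbp5, Hsph1, Tef and Ubfd1). A D-box was found in Per3 and the unit pair in Hsph1. These tallies are per gene and the shares per promoter, so they are not like for like, and some of these letters can overlap other motifs. The full heat shock element of 3 units (0.397% of promoters) and the glucocorticoid response element (0.0153%) were in no window of the 21 genes. A match of letters is a description and does not show that a factor binds there.

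Across the transcriptome no gene differed between dusk and dawn beyond the spread between libraries once all genes were taken into account. Among the genes with small unadjusted p were, higher at dusk, the chemokine receptor gene Cxcr4 and the clock output genes Tef and Dbp, and, lower at dusk, the B cell chemokine gene Cxcl13, the mitochondrial gene mt-Nd2 and the histone gene H3f3b. Of 15311 genes tested, 0 passed (0% called; edgeR quasi-likelihood F test, Benjamini-Hochberg), and the smallest adjusted p was 0.798. An unadjusted p under 0.05 was reached by 887 genes, 5.79% of those tested, 316 higher at dusk (2.06%) and 571 lower (3.73%). DESeq2 called 3 genes higher at dusk and 10 lower. In 262 genes (1.71%) all 4 dusk libraries lay above all 4 dawn libraries, and in 325 genes (2.12%) all lay below. The difference was positive in 46.9% of all genes, with a median of -0.01 log2, and the 95% interval of a gene at 5 CPM or more typically reached 0.18 log2 to either side of its estimate. Without CT2 of day 2, 63 genes passed as lower at dusk. Without CT10 of day 1 and CT2 of day 2 together, a pair chosen after seeing the data, 1 gene passed as higher, Cish, and 44 as lower. The genes that passed as lower included the monocyte and macrophage gene Fcgr1 without CT2 of day 2 and Ccr2 without both.

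Among the clock genes the PAR bZIP factors and the repressor genes Nr1d1 and Per3 were higher at dusk by 0.28 to 0.46 log2, while the differences of Arntl, Clock and Per2 were close to 0. Tef, whose E-boxes are printed above, had 52.1 and 48.2 CPM at CT10 and 47.0 and 47.9 CPM at CT14, against 42.7 and 41.3 CPM at CT22 and 34.7 and 40.0 CPM at CT2. The 4 dusk libraries all lay above the 4 dawn libraries, by 0.30 ± 0.07 log2 (± is a standard error throughout; unadjusted p = 0.00172, edgeR). Dbp, the founding member of the same family, had 21.5 and 22.1 CPM at CT10 and 20.4 and 22.7 CPM at CT14, against 18.5 and 17.6 CPM at CT22 and 16.9 and 18.2 CPM at CT2, again with no overlap and a log2 difference of 0.28 ± 0.07. Nr1d1, which encodes the repressor REV-ERBα, had 8.08 and 8.60 CPM at CT10 and 6.95 and 6.89 CPM at CT14, against 5.65 and 4.89 CPM at CT22 and 5.86 and 6.37 CPM at CT2. Its groups did not overlap either (0.42 ± 0.13 log2), and CT10 stood above CT14. Per3, a period gene with D-boxes before its start, had 6.96 and 7.60 CPM at CT10 and 6.00 and 5.66 CPM at CT14, against 4.19 and 5.91 CPM at CT22 and 4.10 and 5.07 CPM at CT2, and its groups overlapped through CT14 of day 2 and CT22 of day 2 (0.44 ± 0.15 log2). Hlf, the third PAR bZIP gene, averaged 2.54 ± 0.537 CPM at dusk and 1.85 ± 0.264 CPM at dawn (SD, n = 4 each), a difference of 0.46 ± 0.19 log2 at a low level. None of these genes passed after adjustment.

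**Figure D2:**
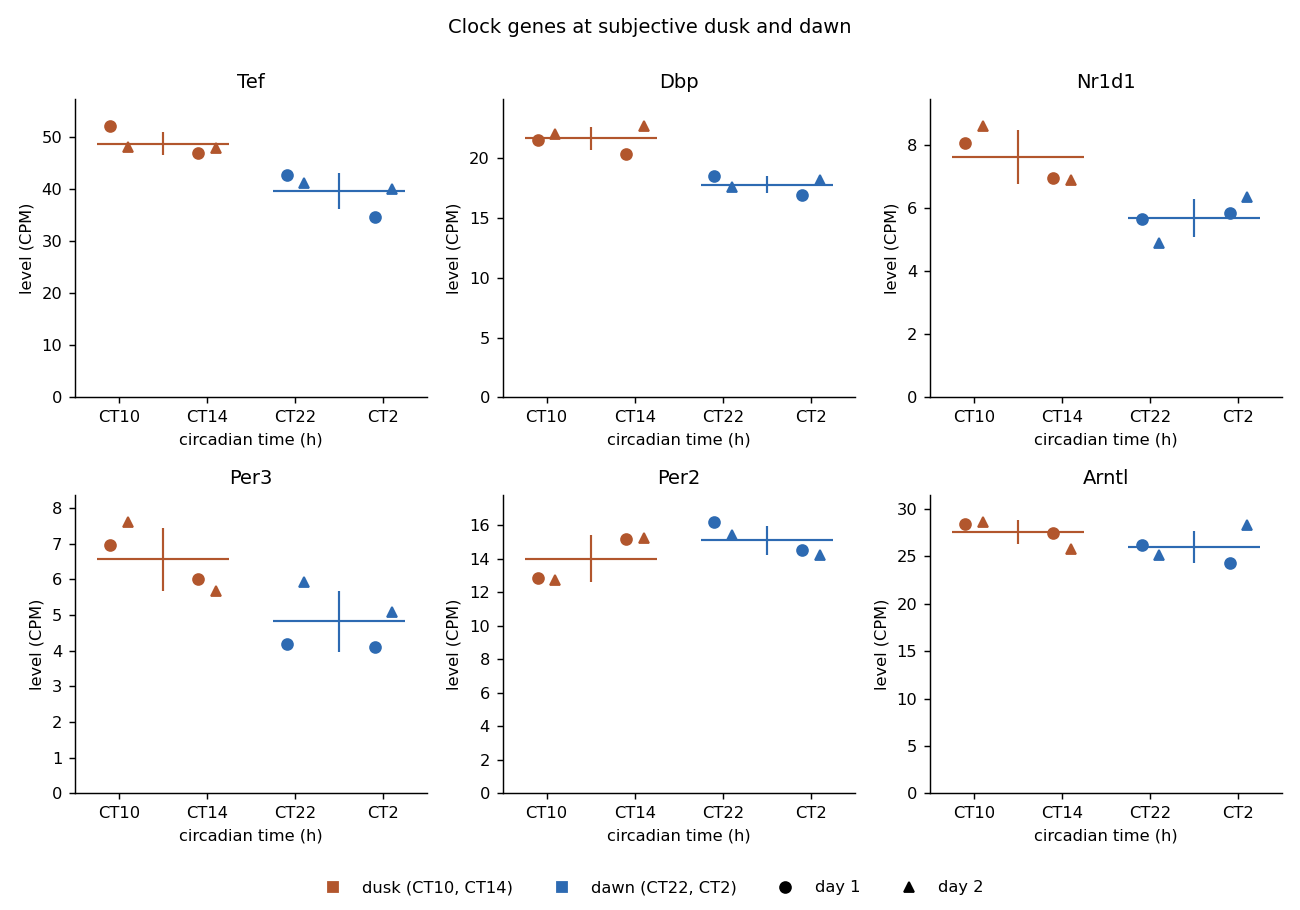
Levels of 6 clock genes in CPM in each library at dusk and dawn, with circles for day 1 and triangles for day 2. Horizontal lines are means and vertical lines SDs of 4 libraries. Tef, Dbp and Nr1d1 separate the dusk from the dawn libraries, while Per2 and Arntl overlap.

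The rest of the clock showed smaller differences. Per2, the period gene that is usually among the strongest rhythms, had 12.9 and 12.7 CPM at CT10 and 15.2 and 15.3 CPM at CT14, against 16.2 and 15.4 CPM at CT22 and 14.5 and 14.2 CPM at CT2. CT10 was the lowest time and CT22 the highest, so that its difference was -0.30 ± 0.10 log2 for CT10 minus CT22 but 0.08 ± 0.09 for CT14 minus CT2, and -0.11 ± 0.09 (95% interval -0.31 to 0.10) over the groups. Arntl, which encodes BMAL1, differed by 0.08 ± 0.07 log2 with a 95% interval of -0.07 to 0.24, and Clock by 0.01 ± 0.06 with -0.13 to 0.14. The repressor genes Cry1 and Cry2 differed by 0.14 ± 0.09 and 0.18 ± 0.10 log2, Per1 by 0.07 ± 0.08 and Nr1d2, the second REV-ERB gene, by 0.15 ± 0.07. Of the 11 tested core clock genes, 2 had an unadjusted p under 0.05, both higher at dusk (2.06% of all genes), and 8 had a positive difference, with a median of 0.08 log2, or 0.05 without CT10 of day 1. Of the 10 clock output genes, 3 were higher at that level (Tef, Dbp and Hlf) and 6 had a negative difference. Those included Bhlhe40, a repressor of the clock (-0.30), Ciart (-0.14), Nfil3 (-0.11), Nampt, the enzyme of NAD synthesis (-0.16), and Usp2 (-0.09). For Nfil3, Bhlhe40 and Nampt the lowest dusk library was CT10 of day 1 and the lowest dawn library CT2 of day 2, the same libraries that were lowest in myeloid RNA, and its part in these values was not tested.

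Levels of different genes can be set beside each other per length, in the TPM values the authors deposited, which are scaled to transcript length. Of the clock genes compared here, Dbp and Tef had the highest means. Dbp stood at 20.8 ± 0.76 TPM at dusk and 16.7 ± 2.0 at dawn (SD, n = 4 each) and Tef at 19.4 ± 0.80 TPM at dusk and 15.7 ± 2.5 at dawn. Nr1d2 had 16.3 ± 1.3 TPM at dusk and 14.2 ± 2.2 at dawn, Cry1 15.2 ± 0.77 TPM at dusk and 13.6 ± 2.2 at dawn, Arntl 11.3 ± 0.73 TPM at dusk and 10.5 ± 1.2 at dawn and Per1 10.5 ± 0.69 TPM at dusk and 9.80 ± 1.6 at dawn. At dawn Dbp, Tef, Nr1d2 and Cry1 each lay within the SD of the next in this order. Clock stood at 6.72 ± 0.27 TPM at dusk and 6.54 ± 1.0 at dawn and Cry2 at 5.75 ± 0.31 TPM at dusk and 4.82 ± 1.0 at dawn. At the low end were Nr1d1 with 3.50 ± 0.49 TPM at dusk and 2.46 ± 0.21 at dawn, Per2 with 2.86 ± 0.28 TPM at dusk and 2.95 ± 0.38 at dawn and Per3 with 1.60 ± 0.15 TPM at dusk and 1.11 ± 0.23 at dawn.

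Some genes known to respond to glucocorticoids were higher at dusk, and Cxcr4, Ddit4 and Tsc22d3 had their highest values at CT10. Cxcr4 (ENSMUSG00000045382.6, chromosome 1, 128588199 to 128592293, GRCm38), the receptor for the chemokine CXCL12 that guides lymphocytes to bone marrow, had 95.4 and 102 CPM at CT10 and 79.8 and 93.9 CPM at CT14, against 73.8 and 73.7 CPM at CT22 and 57.4 and 55.0 CPM at CT2. All 4 dusk libraries lay above all dawn libraries, the lowest dusk value being CT14 of day 1. The log2 difference was 0.51 ± 0.11 (95% interval 0.27 to 0.76; unadjusted p = 0.000901, edgeR), and it was similar on day 1 (0.42) and day 2 (0.62). Outside the comparison Cxcr4 had 65.5 and 58.5 CPM at CT6 and 72.6 and 84.2 CPM at CT18 with scaling over 12 libraries. Ddit4, an inhibitor of mTOR signalling, had 112 and 111 CPM at CT10 and 61.9 and 71.5 CPM at CT14, against 55.4 and 63.7 CPM at CT22 and 48.4 and 62.7 CPM at CT2. Both CT10 libraries stood well above dawn, CT14 of day 1 lay within the dawn range, and CT10 minus CT22 was 0.90 ± 0.13 log2 against 0.26 ± 0.13 for CT14 minus CT2. Tsc22d3, which encodes the glucocorticoid-induced leucine zipper GILZ, had 260.4 and 227 CPM at CT10 and 139 and 150.5 CPM at CT14, against 145 and 125 CPM at CT22 and 121 and 145 CPM at CT2, with the same split between the dusk times (0.53 ± 0.18 log2 over the groups). Klf9, a hormone-induced transcription factor gene, had 3.85, 4.14, 3.75 and 3.65 CPM at dusk and 3.17, 2.90, 3.08 and 3.06 CPM at dawn, without overlap at a low level.

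In the same list the direction was not shared by all members. Txnip (0.25), an inhibitor of thioredoxin and glucose uptake, and Fkbp5 (0.22), the chaperone that damps the hormone receptor, were higher at dusk at an unadjusted p under 0.05, while Dusp1 (-0.52), a phosphatase of MAP kinases, Cebpb (-0.67), a factor of myeloid cells, and Sgk1 (-0.15), a kinase of ion transport, were lower. Of the 19 tested genes 6 were higher and 3 lower at that level (2.06% and 3.73% of all genes), 2 lay wholly above dawn and none below (1.71% and 2.12%), and the median was 0.07 log2, or 0.04 and 0.03 without CT2 of day 1 and of day 2 in turn and 0.11 without CT10 of day 2. For CT10 minus CT22, 7 were higher and 4 lower at that level (3.49% and 7.08% of all genes), with a median of -0.08 log2. For CT14 minus CT2, 4 were higher and 1 lower (5.13% and 7.28%), with a median of 0.12 log2. Pik3ip1, an inhibitor of PI3 kinase, was 0.53 ± 0.08 log2 higher at CT10 than at CT22 and had -0.20 ± 0.08 for CT14 minus CT2. Summed monocyte and macrophage markers were lower at CT10 than at CT22, as given above. Cebpb stood at its highest in the CT22 libraries where those sums were highest, and the part of these cells was not tested.

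Molecular chaperones split the dusk group. At CT14 some of them rose against CT2, while at CT10 most had lower values than at CT22. Hsph1, which encodes the Hsp110 co-chaperone (ENSMUSG00000029657.15, chromosome 5, 149614287 to 149636376), had 97.9 and 119 CPM at CT10 and 329 and 362 CPM at CT14, against 145 and 134 CPM at CT22 and 132 and 128 CPM at CT2. Both CT14 libraries stood far above all others, and both CT10 libraries lay below every dawn library. Over the groups the difference was 0.75 ± 0.37 log2, with a 95% interval of -0.06 to 1.57 that includes 0. Stip1, the adaptor between Hsp70 and Hsp90, had 138 and 147 CPM at CT10 and 273 and 289.8 CPM at CT14, against 162 and 158 CPM at CT22 and 163 and 152 CPM at CT2, and followed the same order. Ahsa2, a co-chaperone gene of the Hsp90 activator family, had 25.9, 26.6, 53.9 and 54.7 CPM at dusk and 31.4, 30.8, 31.6 and 30.2 CPM at dawn. Lman2l, a cargo receptor of the early secretory pathway, had 21.0, 18.6, 40.3 and 40.9 CPM at dusk and 24.3, 23.2, 22.5 and 22.2 CPM at dawn.

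Taking each pair of times 12 h apart, CT14 minus CT2 gave 6 genes past the adjusted threshold (0.0392% of 15311), all of them higher at CT14. These were Hsph1 (1.41 ± 0.10 log2, adjusted p = 0.00617), Stip1 (0.84 ± 0.07), Ahsa2 (0.81 ± 0.07), Lman2l (0.86 ± 0.09), Ccdc117 (0.76 ± 0.08) and Ubfd1 (0.59 ± 0.07; edgeR quasi-likelihood F test, Benjamini-Hochberg). Without either CT14 library 0 genes passed, without CT2 of day 1 59 did and without CT2 of day 2 1917 did, and with the day as a block 4 did (Hsph1, Ahsa2, Stip1 and Lcn4). CT10 minus CT22 gave 0 genes (0%), with 1618 at an unadjusted p under 0.05 (10.6%) and 162 by DESeq2. The contrast of the 2 pairs, CT14 minus CT2 less CT10 minus CT22, passed for 4 genes (0.0261%). It was 1.78 ± 0.14 log2 for Hsph1 (adjusted p = 0.0150), 1.06 ± 0.10 for Ahsa2 (0.0266), 1.01 ± 0.10 for Stip1 (0.0279) and 1.12 ± 0.12 for Lman2l (0.0474; same test and adjustment in edgeR). With the day as a block none of these 4 passed. Leaving out either CT14 or either CT22 library gave 0 genes and CT10 of day 1 gave 2, while leaving out CT2 of day 1 or day 2 gave 1522 or 829.

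Of 20 tested heat shock genes 15 had an unadjusted p under 0.05 for CT14 minus CT2, all higher, where 5.13% of all genes were higher and 7.28% lower at that level, and 2 of them, Hsph1 and Stip1, passed after adjustment. The median over the list was 0.48 log2 for CT14 minus CT2, beside -0.01 over all genes, and -0.22 log2 for CT10 minus CT22, where 8 were lower at an unadjusted p under 0.05 (7.08% of all genes). Hspa4l, Dnajb1, Dnaja1 and Chordc1, co-chaperone genes, had 0.66, 0.67, 0.72 and 0.64 log2 for CT14 minus CT2 and -0.15, -0.14, -0.21 and -0.29 for CT10 minus CT22. Hspa8, the constitutive Hsp70, had 1153, 1291, 2059 and 2222 CPM at dusk and 1473, 1419, 1695 and 1298 CPM at dawn. The inducible Hsp70 gene Hspa1b had 0.455, 2.77, 16.7 and 22.6 CPM at dusk and 5.76, 6.81, 2.13 and 1.71 CPM at dawn, and Hspa1a 0.245, 1.41, 7.78 and 10.8 CPM at dusk and 3.39, 3.24, 1.06 and 0.485 CPM at dawn. The pair are near-identical copies, so their counts are uncertain where reads match both. Of the list 18 of 20 had a positive dusk minus dawn difference (median 0.19 log2), and none had an unadjusted p under 0.05 there. That median was 0.09 and 0.06 log2 without CT14 of day 1 and of day 2 in turn, 0.33 and 0.31 without CT10 of day 1 and of day 2, and -0.26 without both CT14 libraries. Without both CT14 libraries the differences of the 10 chaperone and CT14 genes Hsph1, Stip1, Ahsa2, Lman2l, Ubfd1, Hspa8, Dnajb1, Hspa4l, Dnaja1 and Chordc1 were all negative. Cirbp and Rbm3, which encode RNA-binding proteins induced by mild cold, had their highest dusk values at CT10 and their lowest at CT14. Cirbp had 125 and 98.6 CPM at CT10 and 54.3 and 49.8 CPM at CT14, against 70.8 and 70.1 CPM at CT22 and 67.7 and 107 CPM at CT2, which left 0.05 ± 0.28 log2 over the groups, and Rbm3 had 368 and 367 CPM at CT10 and 258 and 234 CPM at CT14, against 266 and 267 CPM at CT22 and 312 and 257 CPM at CT2.

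**Figure D3:**
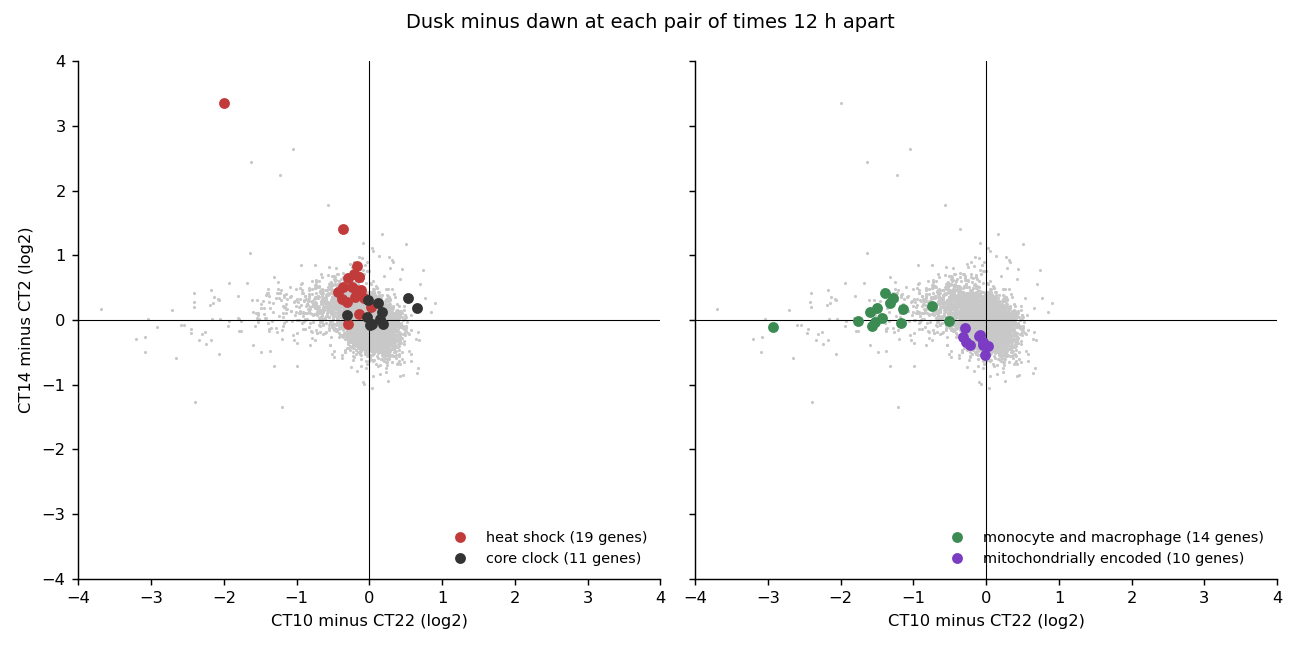
Log2 difference of CT14 minus CT2 (vertical axis) against CT10 minus CT22 (horizontal axis) for the 10123 genes whose mean reached 5 CPM (grey, 1 gene lies outside the axes). Coloured points are heat shock (19) and core clock (11) genes on the left and monocyte and macrophage (14) and mitochondrially encoded (10) genes on the right. The heat shock genes lie above 0 on the vertical axis with few exceptions and mostly left of 0 on the horizontal axis, and the monocyte and macrophage genes lie far to the left and near 0 on the vertical axis.

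The 2 pairs share no library, and over those 10123 genes their differences had the same sign in 44.6% (Pearson r = -0.23 across genes, which are not independent replicates). Between day 1 and day 2 the dusk minus dawn differences had the same sign in 48.2% (r = 0.04 across genes). Tef, Dbp and Cxcr4 had the same sign on both days. This had to be so, since all their dusk libraries lay above all their dawn libraries, and it adds no support. Tef differed by 0.36 log2 on day 1 and 0.24 on day 2, and Dbp by 0.24 and 0.32.

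Several immediate early genes, which respond quickly to receptor signals, had lower levels at dusk. Fos had 87.5 and 95.8 CPM at CT10 and 156 and 124 CPM at CT14, against 191 and 174 CPM at CT22 and 159 and 165 CPM at CT2. The 4 dusk libraries lay below the 4 dawn libraries, CT10 lowest (-0.57 ± 0.16 log2, unadjusted p = 0.00445, edgeR), but at CT6 and CT18 the 2 days lay far apart (102 and 190.1 CPM at CT6 and 111 and 190.1 CPM at CT18). Fosb, its relative, had 25.6, 23.7, 46.0 and 23.9 CPM at dusk and 53.7, 44.4, 68.9 and 45.7 CPM at dawn, and CT14 of day 1 overlapped dawn (-0.83 ± 0.22 log2). Junb (-0.28) and Dusp1 (-0.52) were also lower at an unadjusted p under 0.05, and Jun had -0.32. Of 27 tested genes 5 were lower (3.73% of all genes) and none higher (2.06%) at that level, 19 had a negative difference, and the median was -0.06 log2. For CT10 minus CT22, 11 were lower and 2 higher, where 7.08% of all genes were lower and 3.49% higher. For CT14 minus CT2 the tally ran the other way, with 5 higher and 1 lower (5.13% and 7.28% of all genes). Leaving out 1 library, the list's dusk minus dawn median lay between -0.12 log2 (without CT14 of day 2) and -0.03 (without CT10 of day 2).

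Mitochondrially encoded transcripts were lower at dusk in all 12 tested genes, by a median of 0.21 log2 in size. The subunit gene mt-Nd2 of respiratory complex I had 1599.6 and 1558 CPM at CT10 and 1611 and 1690.0 CPM at CT14, against 1914 and 1905 CPM at CT22 and 2166 and 2037 CPM at CT2. Its groups did not overlap and differed by -0.31 ± 0.07 log2 (95% interval -0.46 to -0.17), and mt-Nd1 of the same complex differed by -0.31 ± 0.08. Both were called by DESeq2 and neither by edgeR after adjustment. Of the 12, 4 were lower at an unadjusted p under 0.05 (3.73% of all genes). Wholly below dawn lay 5 (2.12% of all genes), namely mt-Nd1, mt-Nd2, mt-Nd4, mt-Cytb and mt-Co1. CT2 of day 1 was the highest library for each of these 5, with a sum over the 12 genes of 31220.0 CPM, against 24758 to 25595 CPM in the other dawn libraries and 21976 to 23175 CPM at dusk. Without it the median was -0.18 log2 and all 13 genes then tested were negative. Parts of mitochondrial DNA have near-identical copies in the nuclear genome, so counts of these genes are uncertain where reads match both. Of 24 nuclear genes of the respiratory chain 20 had a negative difference (median -0.11 log2), 1 at an unadjusted p under 0.05 (3.73% of all genes). Without CT2 of day 1 the median was -0.02 log2, with 17 of the 24 negative. The gene at that level was Cox7b, a subunit of complex IV, with 101 ± 6.96 CPM at dusk and 127 ± 33.4 CPM at dawn (SD, n = 4 each), where CT2 of day 1 had 177 CPM and the 3 other dawn libraries 106 to 115 CPM.

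For cytosolic ribosome genes the direction rested on that library. Of 26 genes 23 had a negative difference with CT2 of day 1 (median -0.06 log2), and all 26 a positive one without it (median 0.08 log2).

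**Figure D4:**
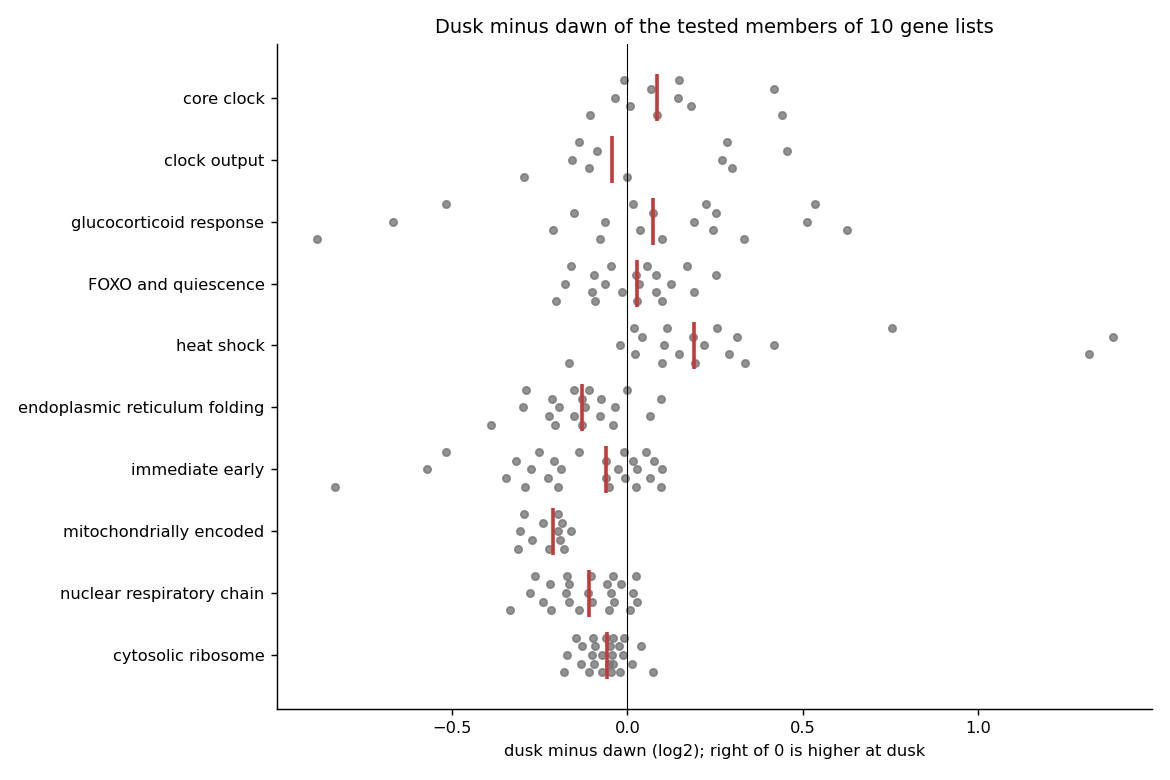
Dusk minus dawn log2 difference of each tested member of 10 gene lists (grey points; vertical scatter within a row has no meaning) with the list's median in red. The medians run from -0.21 for mitochondrially encoded genes to 0.19 for heat shock genes.

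Folding factors of the endoplasmic reticulum were lower at dusk in 18 of 20 genes, with a median of -0.13 log2. Without both CT10 libraries 9 of the 20 were negative, and leaving out 1 library put the median between -0.20 log2 (without CT14 of day 2) and -0.06 (without CT10 of day 1). Calr, a calcium-binding chaperone, had 408 and 419 CPM at CT10 and 502 and 529 CPM at CT14, against 549 and 539 CPM at CT22 and 538 and 544 CPM at CT2, without overlap (-0.22 ± 0.08 log2). Pdia6, a disulfide isomerase, differed by -0.30 and Dnajb9, a co-chaperone of the stress response, by -0.39. With Calr, these were the 3 members lower at an unadjusted p under 0.05 (3.73% of all genes). The gap lay at CT10 minus CT22, where 13 of 20 were lower at that level (7.08% of all genes), Xbp1 by -0.57 ± 0.09 and Calr by -0.39 ± 0.07. Hspa5, the Hsp70 of this compartment, had 365, 397, 503 and 524 CPM at dusk and 514, 490.0, 598 and 463 CPM at dawn.

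The 12 genes with the smallest p among those higher at dusk were taken with pseudogenes and predicted genes left out. Of these 12, 10 lay wholly above dawn (1.71% of all genes), and the 2 that overlapped were Cish and Mxd4. Acrbp had 8.43, 8.96, 9.32 and 8.36 CPM at dusk and 6.82, 6.93, 6.60 and 6.82 CPM at dawn, and Sertad3 13.4, 14.2, 14.0 and 14.1 CPM at dusk and 11.7, 11.4, 11.1 and 11.4 CPM at dawn, both narrow within groups (0.37 ± 0.09 and 0.29 ± 0.07 log2). Cish, a feedback inhibitor of cytokine receptors, had 8.95, 13.0, 13.5 and 13.0 CPM at dusk and 8.61, 9.30, 7.22 and 7.98 CPM at dawn (0.55 ± 0.14). Lta, which encodes lymphotoxin, differed by 0.32 ± 0.09, Irgm2, an interferon-induced GTPase, by 0.24 ± 0.07, Stx2, a membrane fusion protein, by 0.24 ± 0.07, Rhof by 0.22 ± 0.06, March9 by 0.39 ± 0.11 and Mxd4, of the MAX network, by 0.25 ± 0.07. The 12 lower genes were led by Cxcl13, the chemokine of B cell follicles made by stromal cells, at 3.74, 4.18, 4.34 and 4.85 CPM at dusk and 9.12, 10.6, 9.27 and 5.74 CPM at dawn. That is a difference of -1.02 ± 0.18 log2, and CT2 of day 2 was the lowest dawn library. Without the pair of libraries lowest in myeloid RNA it was -1.10 log2 with an adjusted p of 0.0152 (edgeR). That pair was chosen after seeing the data and holds the lowest dusk and the lowest dawn value of Cxcl13, so this p adds no support. Zfp759 had 5.73, 6.15, 6.18 and 6.50 CPM at dusk and 8.10, 8.85, 9.60 and 8.61 CPM at dawn (-0.52 ± 0.10), and H3f3b, a histone variant gene, 368, 355, 349 and 359 CPM at dusk and 417, 402, 464 and 442 CPM at dawn (-0.27 ± 0.06). Zranb2, a splicing factor, differed by -0.27 ± 0.05, Ptp4a1, a phosphatase, by -0.46 ± 0.10, Ddx3x, an RNA helicase, by -0.21 ± 0.05, Hsd17b12 by -0.22 ± 0.05, Zfp994 by -0.31 ± 0.07 and Chm by -0.23 ± 0.06. Ms4a4c (-0.47 ± 0.11) and Sh3bgrl (-0.43 ± 0.11) had their lowest dawn value in CT2 of day 2, the library low in myeloid RNA, and the part of those cells was not tested. In 11 of the 12 the groups did not overlap (2.12% of all genes lay wholly below dawn). In both directions the lack of overlap goes with the choice by p and adds no support. Of these 24 genes, chosen by their p, none passed after adjustment in edgeR. DESeq2 called Cxcr4 as higher at dusk. It called Cxcl13, mt-Nd2, H3f3b, Zfp759, Zranb2, Ddx3x, Ptp4a1 and Ms4a4c as lower.

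**Figure D5:**
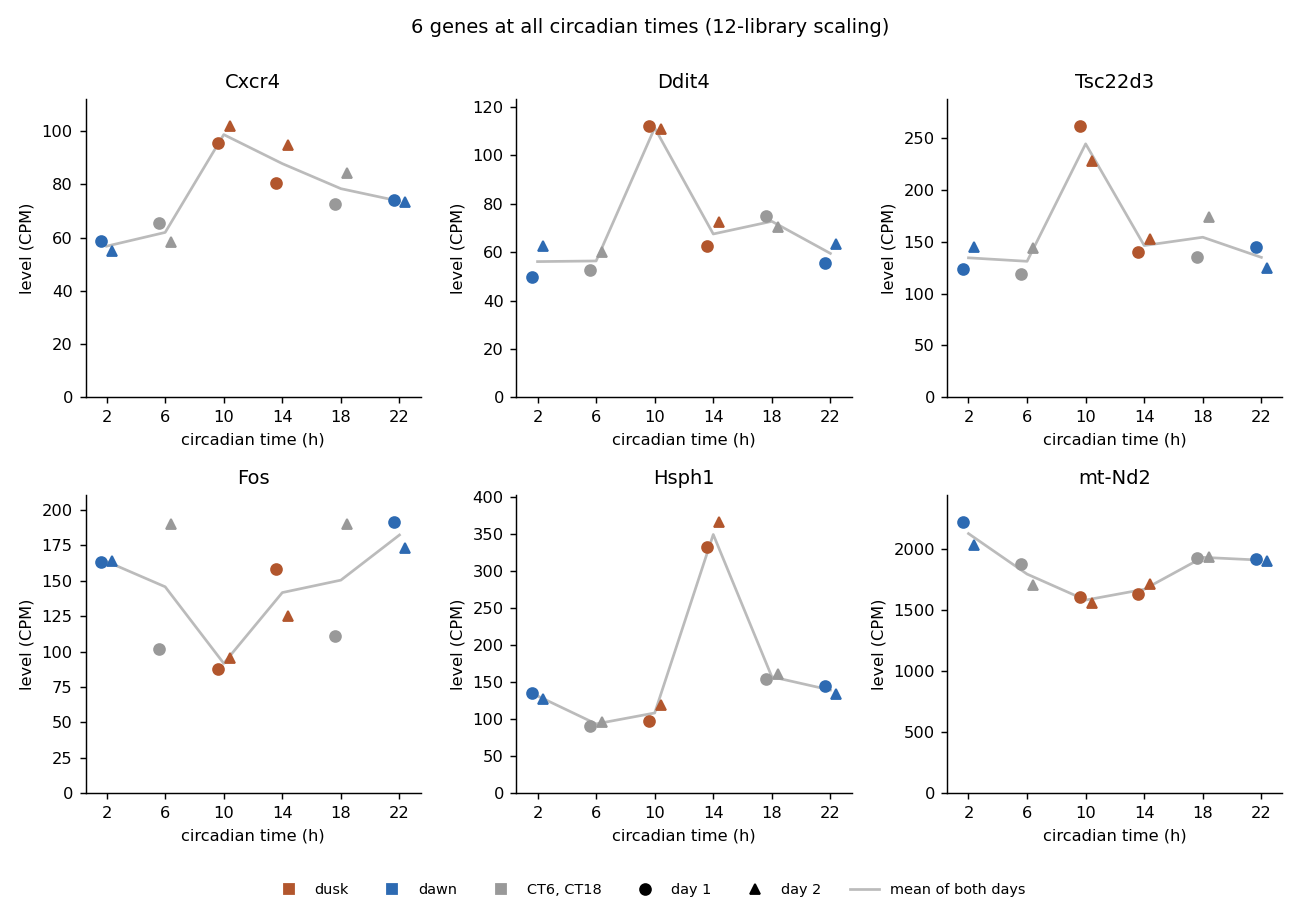
Levels of 6 genes in CPM (scaled over 12 libraries) at all 6 circadian times, with circles for day 1, triangles for day 2 and a grey line through the means. Cxcr4, Ddit4 and Tsc22d3 are highest at CT10, Hsph1 at CT14, and mt-Nd2 is lowest at CT10.

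Among the lists, myeloid markers had some of the widest differences. Fcgr1, a macrophage Fc receptor gene, had 2.27 and 3.58 CPM at CT10 and 3.14 and 5.96 CPM at CT14, against 18.1 and 26.2 CPM at CT22 and 8.54 and 1.27 CPM at CT2 (-1.85 ± 0.66 log2), and the neutrophil genes Csf3r and S100a9 differed by -1.63 and -1.31. Of the 9 tested neutrophil markers 6 had a negative and 3 a positive difference (median -1.14 log2, or -0.58 without CT22 of day 2). At an unadjusted p under 0.05, 4 were lower (3.73% of all genes) and 1 was higher (2.06%). The higher one was Ngp, a granule protein gene, with 1.01, 1.85, 5.72 and 2.73 CPM at dusk and 0.693, 1.81, 1.03 and 0.932 CPM at dawn (1.35 ± 0.49 log2). Lyz2, the lysozyme gene, had 163, 277, 278 and 381 CPM at dusk and 582, 726, 537 and 164 CPM at dawn. CT2 of day 2 was as low as the dusk libraries, so the groups overlapped. All 15 monocyte and macrophage markers had a negative difference (median -0.70 log2), 5 of them at an unadjusted p under 0.05 (3.73% of all genes were lower). Without CT22 of day 2 the median was -0.38 log2, without CT10 of day 1 -0.44, and without both CT22 libraries -0.14 with 4 of the 15 positive. For CT10 minus CT22 all 15 were lower at that level (7.08% of all genes; median -1.43 log2), and for CT14 minus CT2 none was (median 0.03 log2). Zeb2, expressed in effector T cells and myeloid cells, had 11.8, 21.9, 22.3 and 26.7 CPM at dusk and 35.7, 51.0, 27.2 and 15.7 CPM at dawn. Ly6c2, a surface protein of memory T cells and monocytes, differed by -0.33, and Itgb1, an integrin chain gene of cell homing, by -0.20 at an unadjusted p under 0.05.

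In metabolism and growth the differences were small. Cpt1a, whose enzyme lets long fatty acids into mitochondria, had 94.5 and 95.4 CPM at CT10 and 76.8 and 72.6 CPM at CT14, against 72.6 and 86.2 CPM at CT22 and 52.6 and 54.1 CPM at CT2 (0.35 ± 0.16 log2), with CT2 lowest, and Slc25a20, the carnitine carrier of the same route, did not overlap (0.14). Gpi1 of glycolysis (0.11), Foxo3, a factor of T cell quiescence (0.17), the cyclin gene Ccnd3 (0.10) and Rrp9 of ribosome assembly (0.12) also lay wholly above dawn, and Msmo1 of sterol synthesis (-0.18) and Sdhb of complex II (-0.18) wholly below. Each of their lists, of 20 or 24 tested genes, had only 1 or 2 such members, where 1.71% of all genes lay wholly above and 2.12% wholly below. In Gpi1, Foxo3, Rrp9 and Sdhb 1 library stood apart from the rest of its group, as given below. Ccnd2 (0.20), Plcg1 of T cell receptor signalling (0.18) and Socs1 (0.21) were higher at an unadjusted p under 0.05 with overlap. Interferon-response genes were mixed, with Igtp (0.20) and the factor gene Irf1 (0.17) higher and Ifit2 (-0.30) lower, and the remaining 19 of 22 not past that level. The adrenergic signalling, RNA splicing, BCL2 family and NAD lists had none of their 19, 20, 16 and 13 tested members at an unadjusted p under 0.05, with medians of 0.01, 0.03, 0.04 and 0.00 log2. That level was reached by 5.79% of all genes, so its absence from lists this short says little. In the BCL2 family 1 member lay wholly above dawn (1.71% of all genes). None of the members named in these lists passed after adjustment.

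Between the days the dusk minus dawn difference itself was tested gene by gene. It differed for 1 gene (0.00653% of 15311), Smt3h2-ps, a processed pseudogene of a SUMO gene. At dusk it had 5.91 and 6.77 CPM on day 1 and 0.0402 and 0 CPM on day 2, while at dawn it had 7.11 and 10.4 CPM on day 1 and 6.93 and 6.82 CPM on day 2. The fitted interaction was -7.85 log2, a size that depends on the prior count since dusk of day 2 is near 0 (adjusted p = 0.0216, edgeR quasi-likelihood F test, Benjamini-Hochberg) and was not called from RSEM expected counts. Its reads may be shared with the parent gene, so its counts are uncertain. In all, 419 genes (2.74%) had an unadjusted p under 0.05.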

How the data were processed

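Polyadenylated RNA of 12 samples was sequenced, and the 8 libraries of CT10, CT14, CT22 and CT2 were compared. RNA was taken with TRIzol and an RNeasy kit and libraries were made with KAPA RNA HyperPrep, per the labels. The submitters' processing notes name STAR 2.5.1b, RSEM 1.2.28, Trimmomatic 0.35 and bcl2fastq 2.19, with the build GRCm38. Which annotation was counted is not given in the sources used here, nor are the counting options. The authors deposited whole-number counts per gene in the layout of STAR, with a column per strand setting and no normalisation. Column 4 was taken because it left 11.4% to 13.9% of fragments outside genes, while the opposite strand left 77.6% to 80.9%. The 4 rows that name no gene (29.3% to 31.2%) were left out. The deposited RSEM tables give expected counts (estimated, rounded here for an alternative) and TPM, scaled by RSEM to gene length and library. Of 50600 identifiers, 50376 matched a symbol in GENCODE M21, whose coordinates are given.

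Counts were tested with edgeR 4.0.16 in R 4.3.3 (filterByExpr by group, TMM scaling, quasi-likelihood F test of dusk minus dawn, Benjamini-Hochberg over 15311 genes, threshold 0.05). The common biological coefficient of variation was 0.128. Separate fits took the day by group interaction and, with circadian time as the factor, CT10 minus CT22, CT14 minus CT2 and their difference. Group intervals are 95% intervals from the fit, and the counting depth bears on low genes only. DESeq2 1.42.0, other scaling, no low-count filter, the day as a replicate block, RSEM counts and leaving out libraries were alternatives. The time point labels give the day of each library and do not state that libraries of the same day were paired. Deviations of day 2 from day 1 correlated from -0.59 to 0.34 between the 6 pairs of times, with 2 above 0.1. Only the edgeR fit of dusk minus dawn was tried on simulated counts. These were drawn at the common dispersion, without a step between times or days, so they do not test the other fits.

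The rule for naming genes took the 12 smallest p in each direction, the clock genes, the 2 smallest p in each other list, 5 fixed genes and the 4 smallest p of each other test, mostly at 5 CPM or more and without predicted genes. Of its 115 genes 76 are given here, and 25 further genes were picked once their values had been seen. The groups and gene lists were chosen with earlier results of these data known. The lists carry no test of their own.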

Additional observations from a re-analysis of the deposited data

Results flagged for a closer look

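Of 220 sets of 4 values (named genes and marker sums, dusk and dawn apart), 14 had 1 library whose gap to the nearest, as a share of the whole range, exceeded Dixon's 95% critical value. Chance gives about 1 in 20. In 7 the library was CT2 of day 1. It was high for Zranb2 (ratio of gap to range 0.868), Cox7b (0.878), Sdhb (0.850), mt-Nd4 (0.871), mt-Cytb (0.955) and mt-Co1 (0.896) and low for Gpi1 (0.935), and it was also the library with the highest ribosomal sum. CT2 of day 2 stood out high among the dawn libraries for Pik3ip1 (0.835) and Cirbp (0.922), with 107 CPM of Cirbp against 67.7 to 70.8 CPM in the 3 others. CT10 of day 1 stood out among the dusk libraries, low for Cish (0.886) and high for Foxo3 (0.843). CT14 of day 1 was high for Fosb (0.917), with 46.0 CPM against 23.7 to 25.6 CPM, CT14 of day 2 high for Hsd17b12 (0.840) and CT22 of day 2 low for Rrp9 (0.874).

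The dusk to dawn difference depended on the pair of times for 4 genes by the test of that difference, Hsph1 (1.78 log2), Lman2l (1.12), Ahsa2 (1.06) and Stip1 (1.01), and on the day for Smt3h2-ps (-7.85 log2). In Smt3h2-ps, CT6 of day 2, outside the comparison, was also near 0.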

How the results depend on the processing

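The count of genes that differ between dusk and dawn was 0 in each direction by edgeR, and it stayed at 0 with DESeq2 size factors, without a low-count filter, with the day as a replicate block and with circadian time as the factor over 8 or 12 libraries. DESeq2 called 3 higher and 10 lower, RSEM expected counts 1 higher and 1 lower (predicted genes Gm2446 and Gm2436). Leaving out 1 library gave 0 higher throughout and from 0 to 63 lower, the 63 without CT2 of day 2. Without both CT2 libraries 114 genes were lower, and without both CT10 libraries 4 were higher (Hsph1, Stip1, Ahsa2 and Lman2l). Without CT10 of day 1 and CT2 of day 2, an alternative chosen after seeing the data, 1 was higher and 44 lower.

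For CT10 minus CT22 the count of 0 became 162 with DESeq2, 330 without a filter and 2 with RSEM counts. For CT14 minus CT2 the count of 6 became 127 with DESeq2, 83 without a filter, 61 over 12 libraries and 10 with RSEM counts, and ranged from 0 to 1917 without 1 library. The count of 4 for the difference of the pairs became 198 with DESeq2, 374 without a filter, 81 over 12 libraries and 0 with the replicate block, and ranged from 0 to 1522 without 1 library. The 1 interaction by day became 2 with DESeq2, 103 without a filter and 0 with RSEM counts. The causes were not tested. In the block fits, no other count changed by more than 1.5 times.

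Of the 2020 recomputed log2 differences of named genes, 32 changed sign. Without both CT14 libraries the values were -0.32 for Hsph1, -0.0459 for Hspa4l, -0.16 for Stip1, -0.11 for Dnajb1, -0.22 for Lman2l, -0.24 for Ahsa2, -1.37 for Hspa1b, -1.33 for Hspa1a, -0.0746 for Ubfd1, -0.27 for Hspa8, -0.22 for Dnaja1 and -0.30 for Chordc1. Without both CT10 libraries they were -0.12 for Pik3ip1, 0.0239 for Per2, -0.15 for Rbm3, -0.0297 for Per1, 0.13 for Nfil3, 0.0042 for Hspa5 and -0.59 for Cirbp. Cirbp was -0.0396 and -0.0309 with circadian time as the factor over 8 and 12 libraries, -0.0961 without both CT22 libraries, -0.0365 without CT10 of day 1 and CT2 of day 2, and from -0.221 to 0.236 without 1 library. Clock was -0.0046 with RSEM counts, -0.0212 without both CT2 libraries and from -0.0050 to 0.0640 without 1 library. Nfil3 was 0.0055 without both CT22 libraries and from -0.250 to 0.0429 without 1 library. Depth limits low genes, since 1 count is 0.03 to 0.041 CPM.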
